A study of Mus musculus with 9 samples.

Results

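The immunoglobulin genes and the plasma cell genes *Jchain*, *Mzb1* and *Derl3* were examined in 9 mammary gland tumors of Brca1Co/Co;MMTV-Cre;p53+/- mice. Members were chosen by symbol and by summed counts: they were the rows of the count table whose symbol began with Ighv, Igkv or Iglv, or was one of 15 named constant and plasma cell genes, and that held 10 or more counts summed over the 9 tumors. Of 226 rows that matched the symbols, 43 met the minimum, 63 held fewer counts and 120 held 0, and the whole table has 35275 genes. The members were 32 variable (V) genes, 8 constant genes, and *Jchain*, *Mzb1* and *Derl3*. The minimum kept 3 of 108 Ighv rows, 27 of 103 Igkv rows and 2 of 3 Iglv rows. At the edge, *Igkv4-72* entered with 10 counts, while *Igkv4-68* and *Igkv4-86* stayed out with 9 counts each. The constant gene *Ighe*, which encodes the heavy chain of IgE, also stayed out with 7 counts, all in i.v. TLZ tumor 1. No row carried the symbols *Ighd*, *Iglc1* or *Iglc3*, and these 3 genes were not analysed here. Since the rule used the summed counts, membership itself is a description and was not tested.

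Every mouse carried conditional Brca1 alleles, a Cre transgene under the MMTV promoter, which is active in mammary epithelium, and a loss of 1 p53 allele, so the saline mice shared all of these with the treated mice. The 3 groups received saline, free Talazoparib (i.v. TLZ) or a liposomal nanoparticle form of Talazoparib (NanoTLZ), a PARP inhibitor, with 0.33 mg/kg in each dose of Talazoparib. All 3 were given intravenously (i.v.), for 5 doses given 3 times a week. RNA was sequenced from 3 tumors per group, each tumor was 1 replicate, and tumors were numbered within a group in the order of their records. Ages and the plasma cell content of the tumors are not given in the labels, and tumors given empty nanoparticles were not analysed here.

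B lymphocytes join V, diversity and joining segments of the heavy chain locus, and V and joining segments of a kappa or lambda light chain locus, so that each cell and its descendants express mostly a single heavy and a single light chain V gene. *Ighm* encodes the constant part of IgM, and class switching replaces it with that of IgG, IgE or IgA while the V segment is kept. Plasma cells are the secreting end stage of this lineage. They hold very large amounts of immunoglobulin RNA, lower the B cell receptor genes, and use *Jchain* to link IgA or IgM units for transport across epithelia, which in the mammary gland supplies the antibodies of milk.

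Total counts on genes ranged from 17538380 to 21194980 per tumor with a median of 19747343. Levels are given as CPM, the counts in a library scaled by TMM to 1000000 reads. The floor for reading a gene in a tumor was set at 3 counts. The 95% intervals below are exact Clopper-Pearson intervals and, like that floor, cover counting error only. Members together took 191, 685 and 420 counts in saline tumors 1 to 3, 6147, 170 and 356 in i.v. TLZ tumors 1 to 3, and 6659, 474 and 2202 in NanoTLZ tumors 1 to 3. Thus 2 tumors, NanoTLZ tumor 1 and i.v. TLZ tumor 1, held 74.0% of all member counts, and 86.7% lay in 3 tumors once NanoTLZ tumor 3 was added. The group differences below were therefore also read without either of these tumors. Fewer cells of a type and less RNA per cell cannot be told apart in RNA of whole tumors.

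*Igha*, the heavy chain constant gene of IgA, had the most counts of any member, 5956 in all. It measured 1.14, 5.19 and 0.459 CPM in saline tumors 1 to 3, 114 (i.v. TLZ tumor 1), 1.15 and 3.84 CPM after i.v. TLZ, and 116 (NanoTLZ tumor 1), 3.82 and 46.8 CPM after NanoTLZ. NanoTLZ tumors 1 and 3 and the first i.v. TLZ tumor stood above all other tumors, and the remaining treated tumors lay within the saline range. *Igkc*, the kappa light chain constant gene, measured 1.20, 5.34 and 0.459 CPM in the saline tumors, 78.6, 0.711 and 2.92 CPM after i.v. TLZ, and 97.3, 4.86 and 26.5 CPM after NanoTLZ. The same 3 tumors were high, and the treated groups overlapped the saline group for both genes. Group means of *Igkc* were 2.33 ± 2.63 CPM (SD, n = 3) with saline, 27.4 ± 44.3 CPM (SD, n = 3) with i.v. TLZ and 42.9 ± 48.3 CPM (SD, n = 3) with NanoTLZ, so that each SD exceeded its mean. *Igkc* counts differed 202-fold between the lowest and the highest tumor.

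**Figure D1:**
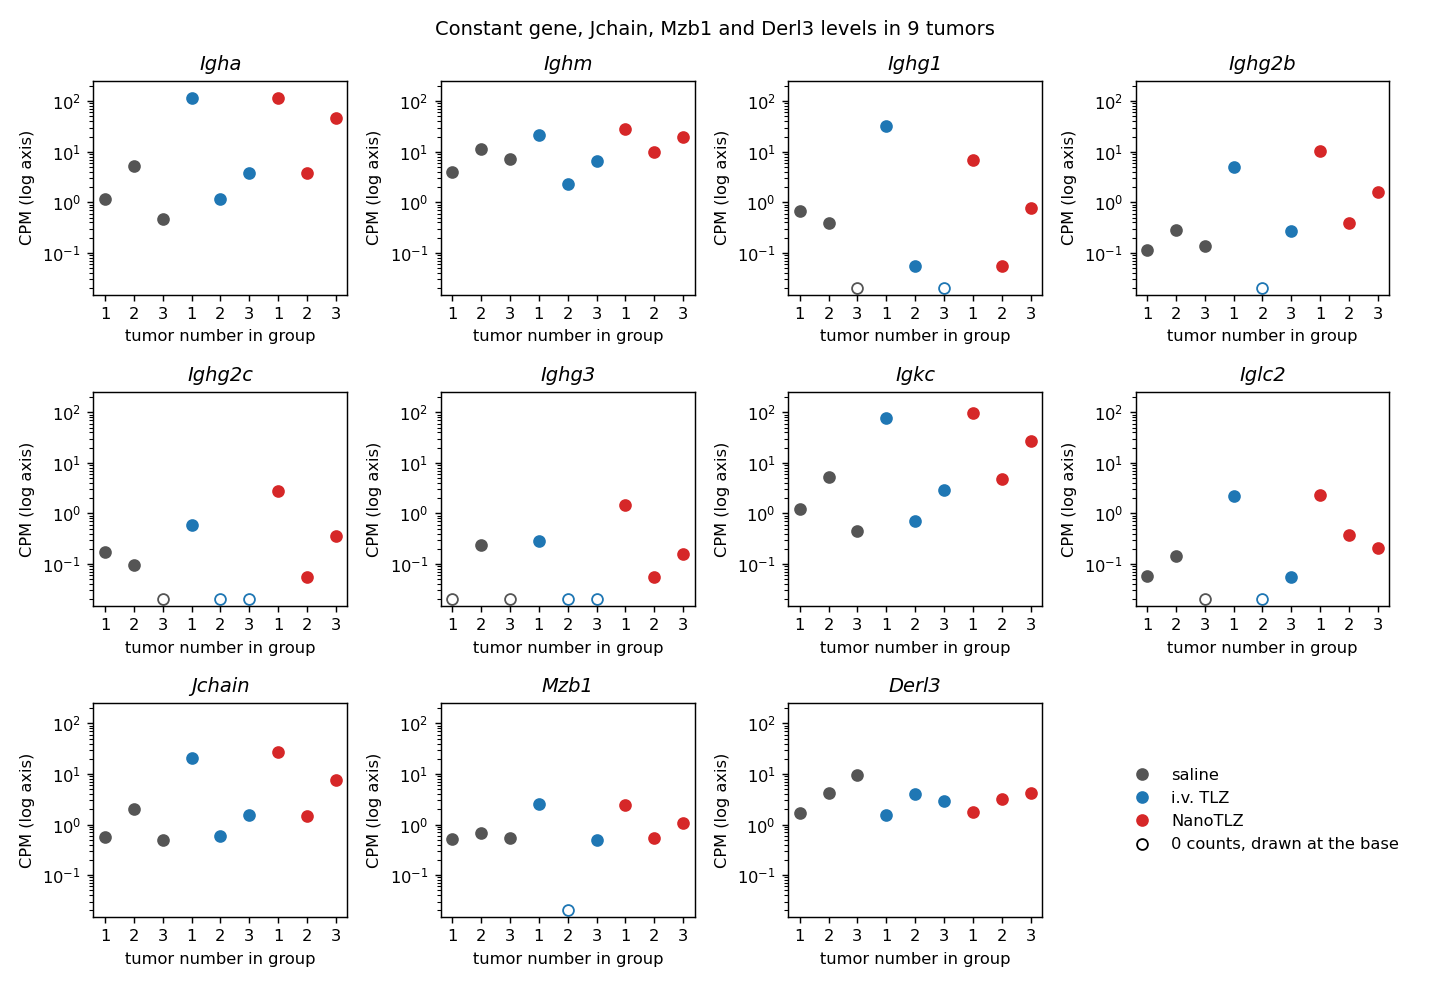
Level in CPM (log axis) of the 8 constant genes, *Jchain*, *Mzb1* and *Derl3* in each of the 9 tumors, with 1 point per tumor and open points for 0 counts. *Igha*, *Igkc* and *Jchain* were highest in NanoTLZ tumors 1 and 3 and i.v. TLZ tumor 1, while *Derl3* was highest in saline tumor 3.

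*Ighm*, the constant gene of IgM and of the receptor on unswitched B cells, spread less. It measured 3.89, 11.4 and 7.34 CPM with saline, 21.6, 2.35 and 6.65 CPM with i.v. TLZ, and 28.4, 9.99 and 19.4 CPM with NanoTLZ. Only 46.5% of its counts lay in these 2 richest tumors, against 79.8% for *Igha* and 81.8% for *Igkc*. The gene counts of *Ighg1*, an IgG heavy chain gene, were 12, 8 and 0 with saline, 669, 1 and 0 with i.v. TLZ, and 141, 1 and 15 with NanoTLZ. The first i.v. TLZ tumor was far above the rest, and 95.6% of all *Ighg1* counts were in it and NanoTLZ tumor 1. *Ighg2b*, a further IgG heavy chain gene, had 2, 6 and 3 counts with saline, 102, 0 and 5 with i.v. TLZ, and 217, 7 and 31 with NanoTLZ. Every NanoTLZ tumor lay above every saline tumor for *Ighg2b*, although the lowest of them, 0.382 CPM, was close to the highest saline tumor, 0.286 CPM. *Ighg2c* and *Ighg3* encode the remaining IgG heavy chains. *Ighg2c* reached 57 counts and *Ighg3* 31 counts, both in NanoTLZ tumor 1, with at most 5 counts of either in any saline tumor.

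The constant genes together came to 7.27, 23.1 and 8.40 CPM in saline tumors 1 to 3, to 254, 4.26 and 13.7 CPM after i.v. TLZ, and to 265, 19.6 and 95.8 CPM after NanoTLZ. Group means were 12.9 ± 8.81 CPM (SD, n = 3), 90.8 ± 142 CPM (SD, n = 3) and 127 ± 126 CPM (SD, n = 3). Without i.v. TLZ tumor 1 the i.v. TLZ mean was 9.003 CPM, below the saline mean, and without NanoTLZ tumor 1 the NanoTLZ mean was 57.7 CPM. Per kb of exon, *Igkc* was the most abundant constant gene in i.v. TLZ tumor 1, at 148 CPM per kb against 42.7 for *Igha*, and in NanoTLZ tumor 1, at 183 against 43.3.

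With edgeR's quasi-likelihood test over all 9 tumors, adjusted by Benjamini-Hochberg over 15821 genes, 11 of the 43 members passed the filter on low counts. They were *Igha*, *Igkc*, *Ighm*, *Ighg1*, *Ighg2b*, *Jchain*, *Mzb1*, *Derl3*, *Igkv10-96*, *Igkv14-111* and *Iglv1*, and the other 32 members had too few counts to be tested. Called at an adjusted p under 0.05 were 0 of the 11 for i.v. TLZ against saline (0% of all genes), 0 for NanoTLZ against saline (0.00632%), 0 for NanoTLZ against i.v. TLZ (0%) and 0 for both treated groups against saline (0.019%). At an unadjusted p under 0.05 the count was 1 member (10.4% of all genes), 4 members (8.99%), 0 members (1.68%) and 4 members (13.1%), in the same order. The first 2 comparisons and the last use the same 3 saline tumors. Groups did not overlap for 1 member, *Ighg2b* in NanoTLZ against saline, where 15.9% of all genes had groups that did not overlap and 7.82% had every NanoTLZ tumor higher. It was 0 members for i.v. TLZ against saline (11.2% of all genes, 5.99% higher), for NanoTLZ against i.v. TLZ (7.61%, 3.2% higher) and for both treated groups against saline (5.47%, 2.81% higher). The median difference of the 11 members was 2.66 on the log2 scale for i.v. TLZ against saline, 3.53 for NanoTLZ against saline, 0.66 for NanoTLZ against i.v. TLZ and 3.20 for both treated groups against saline, beside -0.03, -0.09, -0.04 and -0.06 over all tested genes. These medians cover the tested members only, and a gene low in the saline tumors could pass the filter only through the treated ones.

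Between NanoTLZ and saline the fitted log2 difference of *Igha* was 4.61 (SE 1.77), that of *Igkc* 4.19 (SE 1.71), that of *Ighg2b* 4.47 (SE 1.74) and that of *Jchain* 3.53 (SE 1.40), each with an adjusted p of 0.552 in edgeR's quasi-likelihood test. *Ighm* differed by 1.35 (SE 0.75) and *Ighg1* by 2.84 (SE 2.25). For i.v. TLZ against saline the log2 differences were 4.12 (SE 1.73) for *Igha*, with an edgeR adjusted p of 0.460, 3.55 (SE 1.66) for *Igkc*, 2.87 (SE 1.37) for *Jchain* and 4.93 (SE 2.41) for *Ighg1*. None of these passed the test. The coefficient of variation between tumors that the edgeR fit gave was 116% for *Igha*, 115% for *Igkc* and 171% for *Ighg1*, while its median over all tested genes was 41.9%.

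What was called changed when the tool and the tumors fitted were both changed. With DESeq2 fitted to the NanoTLZ and saline tumors alone, 4 of 17 members tested were called higher, where 1.05% of all genes were called in either direction: *Igha* (4.63 on the log2 scale, DESeq2 adjusted p = 0.00144), *Igkc* (4.22, DESeq2 adjusted p = 0.00450), *Ighg2b* (4.54, DESeq2 adjusted p = 0.00765) and *Jchain* (3.55, DESeq2 adjusted p = 0.0167). With DESeq2 fitted to all 9 tumors, 0 of 10 members tested were called in this comparison (0.712% of all genes). For i.v. TLZ against saline DESeq2 called 0 of 19 members tested on all tumors (1.12% of all genes) and 0 of 10 on the groups compared (0.534%). In the latter fit *Igha*, *Igkc* and *Ighg1* received no p-value, so it did not test them and cannot be set against the calls for NanoTLZ. DESeq2 also called 0 members for NanoTLZ against i.v. TLZ (0.0119% and 0.127%) and for both treated groups against saline (1.53%). Without NanoTLZ tumor 1 the edgeR log2 difference between NanoTLZ and saline was 3.48 for *Igha*, 2.75 for *Igkc*, 2.42 for *Ighg2b*, 2.11 for *Jchain* and 0.25 for *Ighg1*. Without i.v. TLZ tumor 1 the difference between i.v. TLZ and saline was 0.13 for *Igha*, 0.04 for *Jchain*, -0.36 for *Igkc*, -0.40 for *Ighg2b*, -0.74 for *Ighm*, -1.22 for *Mzb1* and -3.41 for *Ighg1*. The higher mean of these genes after i.v. TLZ thus rested on i.v. TLZ tumor 1, whereas *Igha*, *Igkc*, *Ighg2b* and *Jchain* stayed higher in the mean of the other NanoTLZ tumors. For *Igha*, *Igkc* and *Jchain* that mean rested on NanoTLZ tumor 3, with 46.8, 26.5 and 7.45 CPM, since the 3.82, 4.86 and 1.47 CPM of NanoTLZ tumor 2 lay within the saline range.

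NanoTLZ and i.v. TLZ differed by 0.48 (SE 1.51) on the log2 scale for *Igha*, by 0.65 (SE 1.49) for *Igkc*, by 0.66 (SE 1.26) for *Jchain* and by -2.09 (SE 2.08) for *Ighg1*, with an edgeR adjusted p of 0.9999 each. An interval of 2 SE on either side of these values spans both directions, so the comparison does not show that the formulations acted alike. Without NanoTLZ tumor 1 the *Igha* difference was -0.64, and without i.v. TLZ tumor 1 it was 4.47.

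The heavy chain classes show which immunoglobulins the RNA encoded. *Igha* took 19.0%, 29.5% and 5.78% of the heavy chain constant counts in saline tumors 1 to 3, 65.5%, 32.3% and 35.7% after i.v. TLZ, and 69.8%, 26.6% and 67.8% after NanoTLZ. It was the leading class in the 3 tumors with the most immunoglobulin RNA, and *Ighm* led in the other 6, with between 61.8% and 92.5%. The mean *Igha* share was 18.1% ± 11.9 (SD, n = 3) with saline, 44.5% ± 18.3 (SD, n = 3) with i.v. TLZ and 54.8% ± 24.4 (SD, n = 3) with NanoTLZ. The 6 treated tumors exceeded the saline tumors by 31.5 percentage points on average, with an exact two-sided permutation p of 0.0357 over 84 splits, where 0.0119 is the smallest possible. Adjusted over the 2 shares tested, this exact p became 0.0714 and did not pass. NanoTLZ tumor 2, at 26.6%, lay below saline tumor 2, at 29.5%, so the groups overlapped. The share rests on 3439 counts in NanoTLZ tumor 1 and 3582 in i.v. TLZ tumor 1, but on 65 counts in i.v. TLZ tumor 2, where its interval ran from 21.2% to 45.1%, and on 105 counts in saline tumor 1, where it ran from 12.04% to 27.9%.

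**Figure D2:**
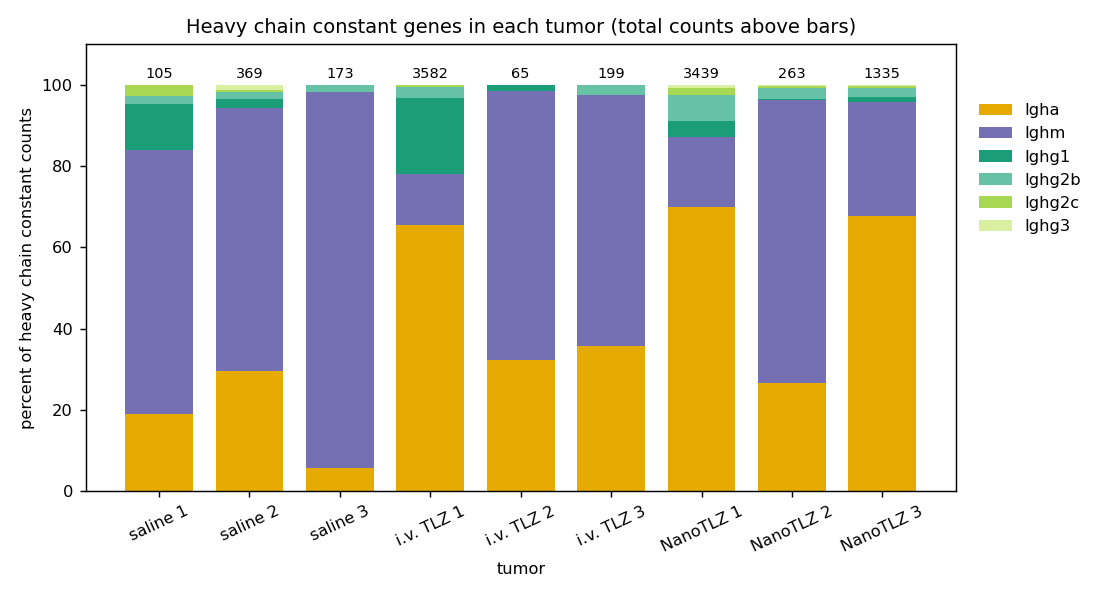
Percent of heavy chain constant counts taken by each constant gene in the 9 tumors (bars add up to 100), with the total counts above each bar. *Igha* took 69.8% and 67.8% in NanoTLZ tumors 1 and 3 and 65.5% in i.v. TLZ tumor 1, and *Ighm* led in the other tumors.

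The IgG classes separated the richest tumors from each other. In i.v. TLZ tumor 1 *Ighg1* took 84.8% (interval 82.1% to 87.2%) of 789 IgG counts, and *Ighg2b* took 12.9%. In NanoTLZ tumor 1 *Ighg1* took 31.6% (interval 27.3% to 36.2%) of 446 IgG counts, *Ighg2b* 48.7%, *Ighg2c* 12.8% and *Ighg3* 6.95%. In NanoTLZ tumor 3 the shares were 26.8% for *Ighg1* and 55.4% for *Ighg2b*, of 56 counts. IgG was thus mostly *Ighg1* in the i.v. TLZ tumor and led by *Ighg2b* in both NanoTLZ tumors. With 1 i.v. TLZ tumor that held more than 5 IgG counts, tumor and treatment cannot be told apart here. All IgG genes together made up 22.0%, 13.0% and 4.19% of heavy chain counts in i.v. TLZ tumor 1, NanoTLZ tumor 1 and NanoTLZ tumor 3.

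The lambda constant gene *Iglc2* had few counts beside the kappa gene *Igkc*: 45 in i.v. TLZ tumor 1, 48 in NanoTLZ tumor 1 and at most 7 in any other tumor. Its share of the *Igkc* and *Iglc2* counts was 2.32% (interval 1.72% to 3.06%) in NanoTLZ tumor 1 and 2.70% (interval 1.98% to 3.60%) in i.v. TLZ tumor 1. Group means were 2.38% ± 2.28 (SD, n = 3) with saline, 1.51% ± 1.38 (SD, n = 3) with i.v. TLZ and 3.46% ± 3.41 (SD, n = 3) with NanoTLZ. The treated tumors exceeded the saline tumors by 0.0994 percentage points (exact two-sided permutation p = 0.964). Other lambda constant genes had no row, so this share covers *Iglc2* alone.

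V gene use is described here by how the reads spread over V genes. V genes were detected, with 1 or more counts, at 3, 15 and 3 of the 32 members in saline tumors 1 to 3, at 30, 5 and 6 after i.v. TLZ, and at 32, 10 and 20 after NanoTLZ. By counts, NanoTLZ tumor 1 was the highest tumor for 21 V members, i.v. TLZ tumor 1 for 8, and saline tumor 2, NanoTLZ tumor 2 and NanoTLZ tumor 3 for 1 each. Ties went to the earlier tumor: *Igkv4-53* had 11 counts in both NanoTLZ tumors 1 and 3, and *Igkv8-24* 5 in both i.v. TLZ tumor 1 and NanoTLZ tumor 1. Members such as *Igkv1-88*, with 6 and 7 counts in i.v. TLZ tumor 1 and NanoTLZ tumor 1 and 0 elsewhere, met the minimum only through these tumors. The tally is therefore a description. More V genes were seen where more immunoglobulin reads were counted. Igkv member counts amounted to between 17.2% and 21.3% of the *Igkc* counts in i.v. TLZ tumors 1 and 3 and in all NanoTLZ tumors, and to between 30.8% and 71.4% in the other 4 tumors, which had 4 to 51 Igkv counts. The low value of i.v. TLZ tumor 3 depended on the minimum of 10 counts: over all Igkv rows it was 40.7%, with 53.8% in i.v. TLZ tumor 2 and 20.1% to 24.7% in the NanoTLZ tumors and i.v. TLZ tumor 1.

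*Igkv1-117* led the kappa V genes in i.v. TLZ tumor 1, *Igkv1-110* in NanoTLZ tumor 1 and *Igkv14-111* in saline tumors 1 and 2, and the last 300 bases of their coding sequences from GENCODE M21 (GRCm38, the assembly also called mm10) are printed for that reason. *Igkv1-117* is at chr6:68121046-68121827 on the plus strand and *Igkv1-110* at chr6:68270485-68271267 on the plus strand, within the kappa locus, and capitals mark the 10 bases at which they differ. *Igkv14-111* is at chr6:68256389-68256869 on the plus strand, between them, and its capitals mark the codons for the Tyr-Tyr-Cys residues that come just before the third hypervariable loop.
Igkv1-117: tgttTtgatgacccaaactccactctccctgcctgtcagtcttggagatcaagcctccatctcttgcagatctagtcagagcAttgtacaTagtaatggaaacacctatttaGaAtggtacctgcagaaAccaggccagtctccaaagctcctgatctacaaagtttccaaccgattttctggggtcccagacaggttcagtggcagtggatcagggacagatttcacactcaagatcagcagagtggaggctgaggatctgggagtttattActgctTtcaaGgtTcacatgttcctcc
Igkv1-110: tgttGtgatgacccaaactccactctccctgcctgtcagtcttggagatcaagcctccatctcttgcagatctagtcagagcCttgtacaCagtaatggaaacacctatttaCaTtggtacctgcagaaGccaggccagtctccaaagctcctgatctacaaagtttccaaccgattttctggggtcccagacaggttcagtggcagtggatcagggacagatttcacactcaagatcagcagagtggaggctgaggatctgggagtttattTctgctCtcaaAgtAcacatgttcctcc
Igkv14-111: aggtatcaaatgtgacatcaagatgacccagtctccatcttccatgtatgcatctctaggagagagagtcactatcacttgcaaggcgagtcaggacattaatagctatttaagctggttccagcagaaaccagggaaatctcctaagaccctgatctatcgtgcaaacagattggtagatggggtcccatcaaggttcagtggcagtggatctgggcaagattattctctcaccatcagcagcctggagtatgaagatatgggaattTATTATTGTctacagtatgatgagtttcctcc

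*Igkv1-117* and *Igkv1-110* were 97.2% identical over 359 bases, while *Igkv1-117* and *Igkv14-111* were 69.2% identical over 341 aligned bases. Of the 32 V members, 15 had another V row of the table at 95% identity or more and 26 at 90% or more. Reads from such pairs, and reads changed by somatic mutation, can be counted on the wrong gene or on none, so V gene counts are uncertain between close relatives. How multiply mapped reads were counted is not given in the sources used here.

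*Igkv1-117* had 0 counts in every saline tumor, 141, 0 and 0 counts in i.v. TLZ tumors 1 to 3, and 51, 0 and 1 counts in NanoTLZ tumors 1 to 3. The mean level after i.v. TLZ was 2.28 ± 3.95 CPM (SD, n = 3), and all of it came from i.v. TLZ tumor 1. *Igkv1-117* met the minimum only through treated tumors, so its difference from saline is a description and was not tested. *Igkv1-110* had 1, 9 and 0 counts with saline, 26, 0 and 0 with i.v. TLZ, and 80, 2 and 8 with NanoTLZ. It was the broader of this close pair, detected in 6 tumors against 3 for *Igkv1-117*.

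In i.v. TLZ tumor 1, *Igkv1-117* took 41.2% (interval 36.0% to 46.6%) of 342 Igkv counts, and the next gene, *Igkv8-30*, took 9.06%. In NanoTLZ tumor 1 the leading gene was *Igkv1-110* with 19.2% (interval 15.6% to 23.4%) of 416 Igkv counts, followed by *Igkv1-117* with 12.3% (interval 9.27% to 15.8%). The intervals of *Igkv1-117* in these tumors do not meet. *Igkv16-104* also stood higher in i.v. TLZ tumor 1, with 22 counts or 6.43%, than in NanoTLZ tumor 1, with 2 counts or 0.481%. In the other direction *Igkv12-41*, *Igkv4-61* and *Igkv9-124* had 13, 14 and 36 counts in NanoTLZ tumor 1 and 0, 1 and 15 counts in i.v. TLZ tumor 1. In NanoTLZ tumor 3 no gene stood out: *Igkv8-28* had 14 counts, or 15.9% (interval 8.98% to 25.2%) of 88, and *Igkv10-96* 13 counts, or 14.8%. *Igkv8-28* was at 0 in i.v. TLZ tumor 1, where 342 Igkv counts were read.

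**Figure D3:**
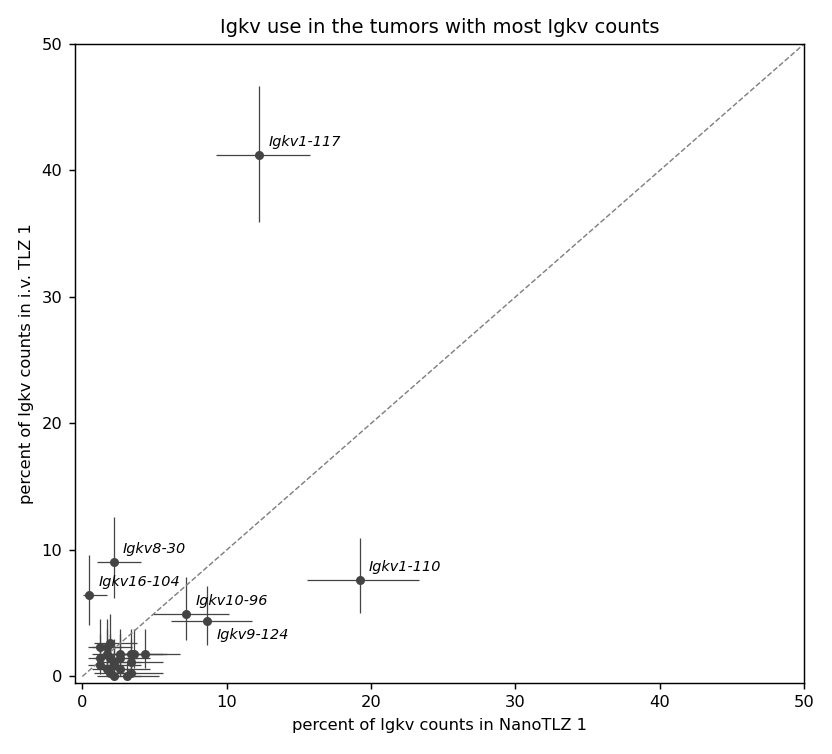
Percent of Igkv counts taken by each of the 27 Igkv members in NanoTLZ tumor 1 (x axis, 416 counts) and i.v. TLZ tumor 1 (y axis, 342 counts), with exact 95% intervals and a dashed line of equal use. *Igkv1-117* stood at 12.3% in NanoTLZ tumor 1 but 41.2% in i.v. TLZ tumor 1, and *Igkv1-110* at 19.2% in NanoTLZ tumor 1.

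*Igkv14-111* went against the other V genes. It had 13, 23 and 0 counts with saline, 4, 1 and 0 with i.v. TLZ, and 14, 0 and 7 with NanoTLZ, and was the V member that was highest in saline tumor 2. It took 13 of 15 Igkv counts in saline tumor 1 and 23 of 51, or 45.1% (interval 31.1% to 59.7%), in saline tumor 2, but 1.17% in i.v. TLZ tumor 1. Its log2 difference was -2.75 (SE 1.53) for i.v. TLZ against saline and -0.80 (SE 1.34) for NanoTLZ against saline, and neither passed the test. *Igkv2-137* took 9 of 19 Igkv counts in NanoTLZ tumor 2 and was detected in 8 of 9 tumors, the most of any V member. Its annotated span overlaps that of a long noncoding RNA gene on the same strand, *Gm42889*, which has no row in the count table. Overlap of their exons was not examined, so the counts may include reads of *Gm42889*.

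The effective number of Igkv genes, the inverse of the summed squared shares, was 4.01 in saline tumor 2, 5.08 in i.v. TLZ tumor 1, 12.7 in NanoTLZ tumor 1 and 10.1 in NanoTLZ tumor 3, the tumors with at least 50 Igkv counts. Reduced to 50 counts, they were expected to show 12.9, 15.3, 19.5 and 14.1 different Igkv genes. By the effective number, kappa V use was spread more evenly in both NanoTLZ tumors than in i.v. TLZ tumor 1, whereas at 50 counts NanoTLZ tumor 3 was expected to show fewer genes than i.v. TLZ tumor 1. These values describe single tumors and were not tested between groups. With V genes of 50 or more counts only, the values were 2.42, 2.48, 4.22 and 4.11, in the same order.

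**Figure D4:**
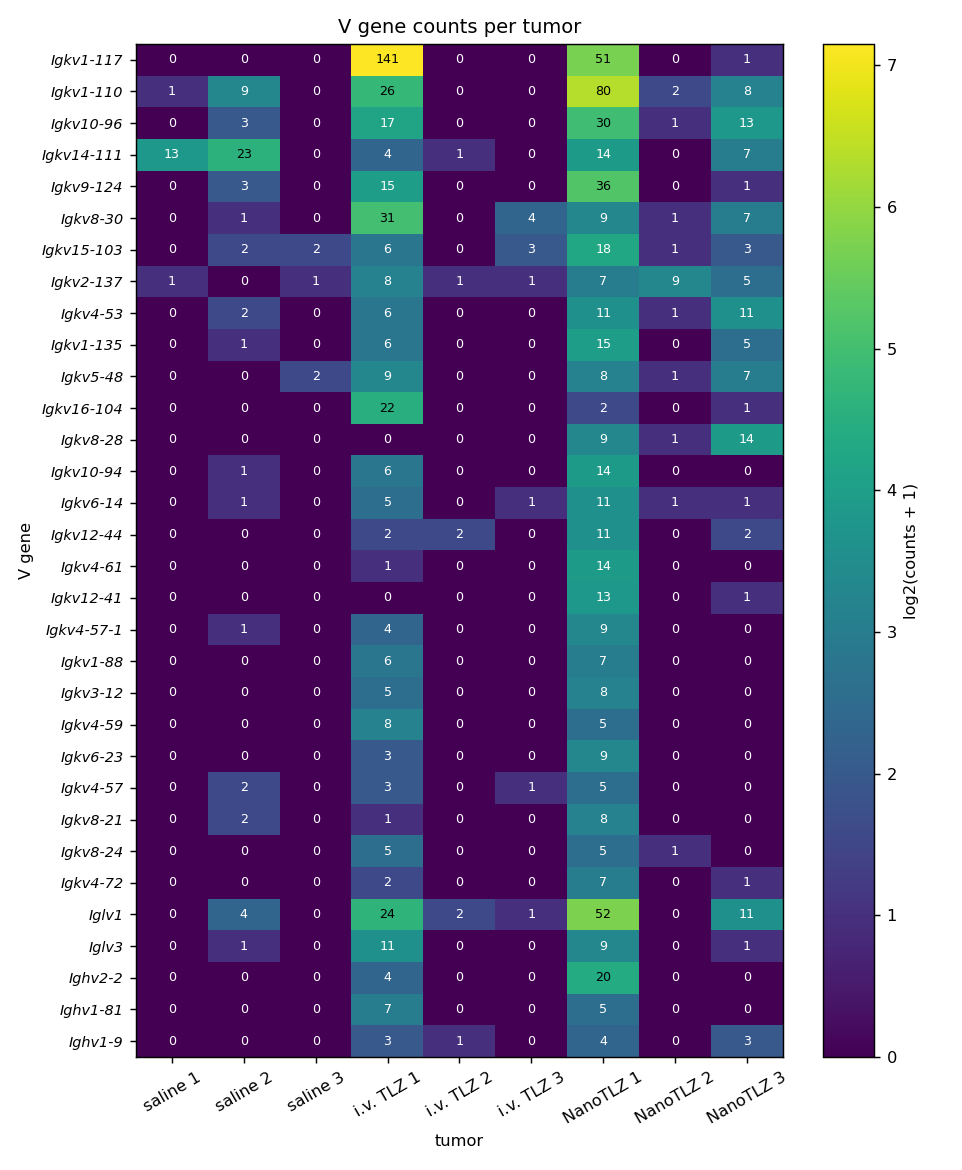
Counts of the 32 V members (rows, sorted by total within each locus) in the 9 tumors (columns), coloured by log2(counts + 1) and with the count in each cell. Most counts lie in NanoTLZ tumors 1 and 3 and in i.v. TLZ tumor 1, and *Igkv14-111* is highest in saline tumor 2.

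Among the lambda V genes *Iglv1* led in every tumor with Iglv counts. It had 0, 4 and 0 counts with saline, 24, 2 and 1 with i.v. TLZ, and 52, 0 and 11 with NanoTLZ. *Iglv3* had 11 counts in i.v. TLZ tumor 1, 9 in NanoTLZ tumor 1 and at most 1 elsewhere. The annotated span of an antisense gene, *2010309G21Rik*, overlaps that of *Iglv1*. Overlap of their exons was not examined and the strand setting is not stated, so the *Iglv1* counts may include reads of *2010309G21Rik*. Lambda V genes made up 9.28% of the light chain V counts in i.v. TLZ tumor 1, 12.8% in NanoTLZ tumor 1 and 12% in NanoTLZ tumor 3, several times the share of *Iglc2* among light chain constant counts.

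Heavy chain V genes were almost unseen. All 108 Ighv rows held 100 counts, against 1103 for the 103 Igkv rows, although heavy chain constant genes held more counts than *Igkc*. *Ighv2-2* had 20 counts in NanoTLZ tumor 1 and 4 in i.v. TLZ tumor 1. *Ighv1-81* had 5 and 7 counts in these tumors, and *Ighv1-9* had 4 and 3 counts there and 3 in NanoTLZ tumor 3. No saline tumor had a count on these 3 genes, which at 3 counts per tumor is not detectable rather than absent.

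*Jchain*, the joining chain of secreted IgA and IgM, measured 0.572, 2.002 and 0.505 CPM with saline, 20.6, 0.601 and 1.51 CPM with i.v. TLZ, and 26.9, 1.47 and 7.45 CPM with NanoTLZ. It followed *Igkc* closely in the rich tumors, with 0.276 and 0.281 *Jchain* counts per *Igkc* count in NanoTLZ tumors 1 and 3 and 0.262 in i.v. TLZ tumor 1. The ratio was between 0.303, in NanoTLZ tumor 2, and 1.1 in the other tumors, where counts were low. *Ighm* per *Igkc* count was 0.275, 0.292 and 0.729 in i.v. TLZ tumor 1, NanoTLZ tumor 1 and NanoTLZ tumor 3 and between 2.06 and 16 elsewhere. The tumors poor in *Jchain* and *Igkc* thus kept proportionally more *Ighm*.

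*Mzb1*, a chaperone of the endoplasmic reticulum in B and plasma cells, had 9, 14 and 12 counts with saline, 52, 0 and 9 with i.v. TLZ, and 50, 10 and 21 with NanoTLZ. It was highest in the same 3 tumors, at up to 2.52 CPM. The annotated span of *Mzb1* overlaps the protein-coding gene *SPATA24* on the same strand, and that of *Igkc* the long noncoding RNA gene *Gm30211* on the same strand. Overlap of exons was not examined for these pairs, so the counts may include reads of the overlapping genes. *Derl3*, which helps remove misfolded proteins from the endoplasmic reticulum, did not follow the immunoglobulin genes. It had 30, 89 and 209 counts with saline, 32, 74 and 54 with i.v. TLZ, and 37, 59 and 82 with NanoTLZ, and only 10.4% of its counts were in the 2 tumors richest in *Igkc*. The log2 difference between both treated groups and saline was 1.005 (SE 1.02) for *Mzb1* and -0.81 (SE 0.56) for *Derl3*, and neither passed the test.

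The cell type label was checked against other genes of plasma cells. *Tnfrsf17*, the receptor BCMA that plasma cells need for survival, had at most 4 counts in any tumor. *Xbp1*, the factor that expands the secretory apparatus, was highest in saline tumor 1 at 827 CPM, and ranged from 107 to 415 CPM elsewhere. Saline tumor 1 also had the highest summed level of 7 secretory epithelial genes, 3183 CPM. Which cells made the *Xbp1* RNA was not tested. *Sdc1*, the plasma cell surface protein CD138, which epithelium also makes, ranged from 312 to 1411 CPM and was highest in i.v. TLZ tumor 2. *Prdm1* and *Irf4*, factors of plasma cell differentiation, were highest in the 2 tumors richest in *Igkc*, with the smallest margin for *Prdm1* in NanoTLZ tumor 1. *Prdm1* measured 11.2 CPM in NanoTLZ tumor 1 against 17.4 CPM in i.v. TLZ tumor 1, followed by 10.7 CPM in saline tumor 2. *Irf4* measured 2.02 CPM in NanoTLZ tumor 1 and 1.70 CPM in i.v. TLZ tumor 1, followed by 1.36 CPM in NanoTLZ tumor 2. The label therefore rests mainly on the immunoglobulin genes, *Jchain* and *Mzb1*, which are members chosen by symbol and give no independent check of it. *Xbp1*, *Sdc1* and *Derl3* did not separate the tumors in the same way. Of the list of 14 plasma cell genes outside the immunoglobulins, 0 of 12 tested were called in either direction in any comparison.

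B cell genes were low and uneven. *Pax5*, the factor that keeps B cell identity, had 28 counts in i.v. TLZ tumor 1, 32 in NanoTLZ tumor 1, 10 in NanoTLZ tumor 3 and at most 2 elsewhere. *Ms4a1*, a B cell surface gene, had 52 counts in NanoTLZ tumor 1 but 7 in i.v. TLZ tumor 1. *Cd79a*, part of the B cell receptor, measured 0.17, 0.10 and 0.28 CPM with saline, 2.18, 1.64 and 0.54 CPM with i.v. TLZ, and 4.04, 0.44 and 1.29 CPM with NanoTLZ. It was higher in every treated tumor than in any saline tumor, as were 2.81% of all genes. The margin was small, with 8 counts in NanoTLZ tumor 2 against 6 in saline tumor 3. *Cd79a* differed by 3.16 (SE 0.88) on the log2 scale, with an edgeR adjusted p of 0.282. Its partner *Cd79b* was highest in saline tumor 3, at 4.36 CPM with 95 counts. Next came NanoTLZ tumor 1 with 81 counts, NanoTLZ tumor 3 with 32 and i.v. TLZ tumor 1 with 25. The remaining tumors had at most 8 counts of *Cd79b*. Of the 15 B cell genes 9 were tested and 0 were called in any comparison, and the summed level of the list was 21.5 to 52.5 CPM with saline, 21.0 to 43.3 CPM with i.v. TLZ and 29.1 to 60.0 CPM with NanoTLZ. Genes of B cell precursors, such as *Rag1*, *Rag2* and *Vpreb1*, were at or near 0 in every tumor. Of a list of 7 germinal center and switching genes, 0 of 4 tested were called.

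**Figure D5:**
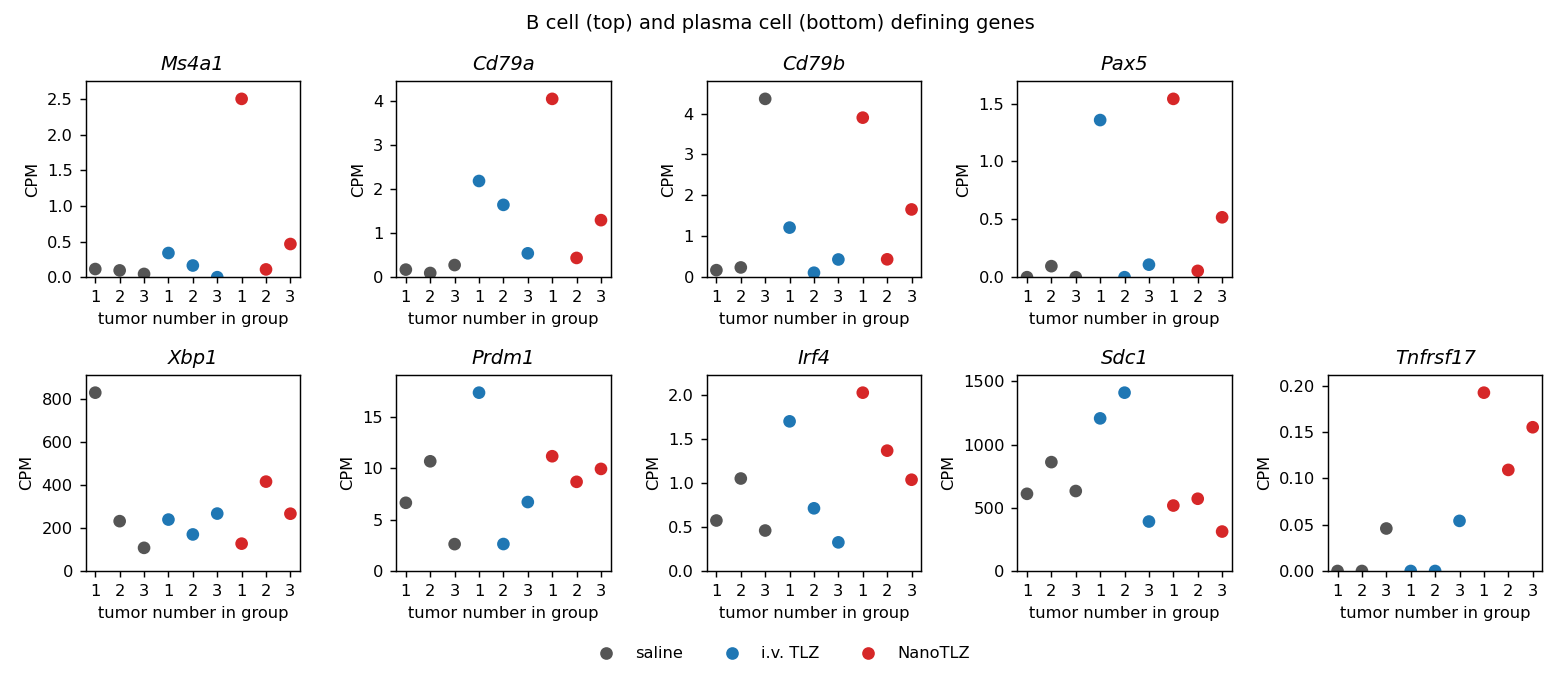
Level in CPM (linear axes from 0) of 4 B cell genes (top) and 5 plasma cell genes (bottom) in each of the 9 tumors. *Pax5* was high in NanoTLZ tumor 1 and i.v. TLZ tumor 1, *Xbp1* was highest in saline tumor 1, and *Tnfrsf17* stayed below 0.20 CPM.

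Genes that carry IgA or guide plasma cells were read beside *Igha*. *Pigr*, the receptor that carries IgA through epithelium, measured 121, 21.4 and 1.74 CPM with saline, 4.17, 0.44 and 6.38 CPM with i.v. TLZ, and 6.69, 5.13 and 12.4 CPM with NanoTLZ, so its highest tumor was low in *Igha*. *Ccl28*, the mammary chemokine for IgA-secreting cells, did not exceed 0.33 CPM. *Vcam1*, an adhesion molecule, and *Cxcl12*, a chemokine that retains plasma cells, differed between both treated groups and saline by 2.13 (SE 0.45) and 1.97 (SE 0.51) on the log2 scale, with edgeR adjusted p values of 0.238 and 0.277 that miss the threshold. *Itgb7*, an integrin of gut-homing lymphocytes, was highest in i.v. TLZ tumor 1 at 12.2 CPM. Of this list of 13 genes, 0 of 11 tested were called. Of 9 cytokine genes of B cell survival and switching and 8 Fc receptor genes, 0 of 5 and 0 of 7 tested were called.

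Genes of other cells were read beside these values. The summed level of 10 T cell genes was 8.07 to 21.6 CPM with saline, 8.80 to 32.7 CPM with i.v. TLZ and 24.0 to 51.3 CPM with NanoTLZ, and 0 of 9 tested were called. That of 10 myeloid genes was 593 to 2534 CPM, 1612 to 3165 CPM and 3336 to 4435 CPM, and 0 of 9 tested were called. Of 7 genes of lymph node stroma, *Ccl21a* and *Ccl19* were highest in NanoTLZ tumor 1, at 1.59 and 0.67 CPM, and at or below 0.52 and 0.11 CPM in all others, *Chst4* was at or near 0 in every tumor, and the summed level was 0.413 to 17.7 CPM, 5.69 to 10.03 CPM and 18.6 to 22.1 CPM. The fat cell genes *Adipoq* and *Plin1* were also highest in NanoTLZ tumor 1, at 2.84 and 2.60 CPM. For both treated groups together against saline, 13.1% of all genes had an unadjusted edgeR p under 0.05. With such a p and not called, the log2 difference was 1.80 for *Cd2* and 1.73 for *Il7r*, which are T cell genes. It was 1.65 for the macrophage lysozyme *Lyz2* and 1.105 for *Sec11c*, a subunit of the signal peptidase. It was -1.07 for *Ung*, a uracil glycosylase, and -1.25 for *Cxcr4*, the receptor of *Cxcl12*. Under the same condition the difference was -4.47 for the milk protein gene *Lalba*, -3.11 for the casein gene *Csn1s1*, -1.01 for *Elf5*, a factor of secretory epithelium, -5.39 for the basal keratin *Krt5*, and -8.38 and -7.65 for the muscle genes *Acta1* and *Ckm*. The part of lymph node, fat or other tissue in the immunoglobulin RNA of NanoTLZ tumor 1 was not tested. Secretory epithelial genes were low in saline tumor 3 and high in saline tumor 1, with a summed level from 73.1 to 3183 CPM in the saline group, and 0 of 6 tested were called, with a median log2 difference of -1.68 between both treated groups and saline and 0 of 6 above 0. None was called either among 6 general epithelial genes. Of 8 genes of muscle, fat and vessels, 1 of 6 tested was called, the muscle myosin *Myh4*. It was lower in both treated groups together than in saline (edgeR adjusted p = 0.0207), where 0.019% of all genes were called.

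By Pearson correlation of log2(CPM + 1) over the 9 tumors, the genes outside the members with the pattern most like that of *Jchain* were *Pax5* (0.988), *Dnm3* (0.948) and *Ikzf3* (0.948), the last being a lymphocyte factor that stays on in plasma cells, followed by a gene with no symbol, *Prr33* (0.945), *A2m* (0.942) and *Bgn* (0.941). These are descriptions over 9 points that share 2 or 3 rich tumors. *Ikzf3* measured 3.39 CPM in i.v. TLZ tumor 1, 3.71 CPM in NanoTLZ tumor 1 and 2.90 CPM in NanoTLZ tumor 3, and at most 1.33 CPM elsewhere. *Bgn*, which encodes a matrix proteoglycan, measured 699 and 609 CPM in the first 2 of these tumors and between 152 and 357 CPM in the others.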

How the data were processed

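RNA from 9 tumors was sequenced as described in the paper's methods, and the table the authors deposited holds raw counts of reads for each gene, not normalized. The submitters' processing notes name TopHat2, DESeq2 and mm10; the counting program, annotation and strand setting are not given in the sources used here. Symbols and positions came from GENCODE M21 (GRCm38), which matched 34490 of 35275 identifiers. The members, gene lists and tests were chosen with earlier results of these data known. The genes named were the constant genes, *Jchain*, *Mzb1* and *Derl3*; in each V locus the member with the most counts in each tumor and the 3 with the most in all; the rows nearest the minimum; fixed cell type markers; listed genes of high mean level or with an unadjusted p under 0.05; and the genes most like *Jchain*. Others, such as *Igkv16-104*, *Igkv12-41*, *Igkv4-61*, *Ccl28* and *Ccl21a*, were chosen after their values were seen, and not every listed gene is reported here.

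Counts were filtered with filterByExpr, scaled by TMM and fitted for all 9 tumors in edgeR 4.0.16 (R 4.3.3) with glmQLFit and glmQLFTest, 1 coefficient per group, and called at an adjusted p under 0.05. The SE given with an edgeR difference was the absolute log2 difference divided by the square root of the F statistic of its test. It was not a separate output of the fit. DESeq2 1.42.0 was an alternative. The edgeR and DESeq2 fits were also run on simulated counts in which some genes were raised in all NanoTLZ tumors. That simulation did not cover genes whose counts lie mostly in single tumors, the shares or the V gene measures. Shares were compared by exact permutation (scipy 1.17.1). The study gives 3 mice per group for the RNA sequencing, so p-values measure the spread between mice. V genes with fewer than 10 counts were left out. Other alternatives were RLE scaling, other filters on low counts, edgeR on the groups compared, other V gene minimums, exon length scaling and leaving out each tumor.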

Additional observations from a re-analysis of the deposited data

How the results depend on the processing

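The number of members called stayed at 0 in all 4 comparisons under RLE scaling, without the filter on low counts, with at least 10 counts in every tumor, with edgeR on the groups compared, with DESeq2 on all 9 tumors and with each tumor left out in turn. DESeq2 on the groups compared called 4 members for NanoTLZ against saline. The difference in the *Igha* share kept its direction, from 25.3 to 37.2 percentage points with each tumor left out, but, among the fits with 1 tumor left out, its exact p was under 0.05 only without NanoTLZ tumor 2 (0.0357 with all tumors). The lambda share difference ran from -1.09 to 1.18, below 0 without saline tumor 3 (-1.09) or NanoTLZ tumor 2 (-0.862). The effective number of Igkv genes was 16.9 in NanoTLZ tumor 1 with every V gene counted, and 4.22 in NanoTLZ tumor 1 and 4.11 in NanoTLZ tumor 3 with genes of 50 or more counts; without *Igkv14-111*, *Igkv15-103* and *Igkv2-137*, chosen after seeing the data, it was 10.9 and 7.80 there. Constant gene means with each tumor left out ran from 7.83 to 15.7 CPM with saline, 9.003 to 134 CPM with i.v. TLZ and 57.7 to 180.5 CPM with NanoTLZ.

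Leaving out 1 tumor turned some log2 differences. For i.v. TLZ against saline they ran from -3.41 to 5.79 for *Ighg1*, -0.40 to 3.80 for *Ighg2b*, -0.74 to 0.90 for *Ighm*, -0.36 to 5.05 for *Igkc* and -1.22 to 1.37 for *Mzb1*, in each case below 0 without i.v. TLZ tumor 1. For NanoTLZ against i.v. TLZ they ran from -0.64 to 4.47 for *Igha*, -4.67 to 6.25 for *Ighg1*, -0.80 to 4.87 for *Ighg2b*, -0.80 to 4.56 for *Igkc*, -0.76 to 3.49 for *Jchain*, -0.30 to 2.44 for *Mzb1* and -0.17 to 0.46 for *Derl3*. *Derl3* ran from -1.13 to 0.0703 for NanoTLZ against saline. For both treated groups against saline *Derl3* ran from -1.20 to 0.00456, *Ighg1* from -0.29 to 4.76 and *Mzb1* from -0.0043 to 1.29. Without i.v. TLZ tumor 1 and NanoTLZ tumor 1 together, chosen after seeing the data, i.v. TLZ against saline gave -0.36 for *Igkc*, -0.74 for *Ighm*, -3.41 for *Ighg1* and -1.22 for *Mzb1*, NanoTLZ against i.v. TLZ gave 3.66 for *Ighg1*, and both treated groups against saline gave -1.58 for *Ighg1* and -0.36 for *Mzb1*. The cause was not tested. No paired analysis was possible because the labels number no tumors across groups. Depth limited V gene use to 4 tumors.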

Other observations

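Joining segments were read as well, outside the members. *Ighj4* had 3, 2 and 0 counts in saline tumors 1 to 3, 3, 2 and 5 with i.v. TLZ, and 11, 10 and 4 with NanoTLZ. *Ighj1* had 1, 1 and 3 counts, 6, 1 and 2, and 8, 5 and 5, in the same order. The kappa joining segments had between 1 and 8 counts each over all tumors.

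Below the minimum of 10 counts, *Igkv6-13* had 7 of its 8 counts in i.v. TLZ tumor 1, and *Igkv5-39* 6 of its 8 counts in NanoTLZ tumor 1. These rows were chosen after their values were seen.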
